A study of Mus musculus with 8 samples.

Results

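The 10 genes followed here in single epithelial cells carry niche signals of the crypt: the ligands Wnt3, Egf, Tgfa, Dll1, Dll4 and Jag1, the receptors Notch1, Notch2 and Egfr, and the Notch target Hes1. They were taken by symbol, and all 10 were found among the 27998 genes of the matrices. The cells carried EpCAM, an epithelial surface protein, and had been sorted from crypts of the small intestine of adult C57BL/6-background mice. The KO group lacked ieCtnnb1, an intestinal enhancer upstream of Ctnnb1, the gene of β-catenin. The group labelled WT was, per the study, H11 i.enh mice, which keep the enhancer and carry at the H11 locus a LacZ-iCre cassette driven by the Shh promoter and a further copy of the enhancer's core region only, so these are not plain wild-type animals. The labels list 4 samples per group, but each group came as 1 pooled matrix, and no cell could be assigned to a labelled sample. Each group is therefore 1 sample, no test between groups was possible, and every interval below is a 95% interval that covers counting error only.

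In the crypt, Paneth cells lie between the stem cells and are known to supply them with Wnt3, Egf and Notch ligands. Wnt and EGF are secreted or shed and act through Frizzled and EGF receptors. Notch ligands stay on the membrane of the sending cell and act on Notch receptors of its neighbour, where Hes1 is switched on. Hes1 represses Atoh1, the factor of the secretory fate, and cells that express Atoh1 turn on Delta ligands themselves.

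Promoter windows are shown for the ligand that led in Paneth cells and for the Delta ligands that led in goblet cells in WT, since these carry the sender side of the results. Each window holds 250 bases before and 50 after a RefSeq transcription start in GRCm38.p6. The 6 motifs searched were read on both strands and were the E-boxes CAGCTG and CAGATG, the RBPJ motif TGGGAA, the TCF motifs CTTTGT and CTTTGA, and the TATA motif TATAAA. Capitals mark a match, and a match on the reverse strand shows the reverse complement.
Wnt3, chr11:103773925-103774224, plus strand: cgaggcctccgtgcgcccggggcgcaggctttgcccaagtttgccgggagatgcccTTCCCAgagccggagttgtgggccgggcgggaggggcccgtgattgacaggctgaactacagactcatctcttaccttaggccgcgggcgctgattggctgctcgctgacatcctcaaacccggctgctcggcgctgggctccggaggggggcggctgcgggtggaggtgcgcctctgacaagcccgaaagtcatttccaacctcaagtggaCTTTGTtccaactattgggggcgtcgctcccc
Dll1, chr17:15376883-15377182, minus strand: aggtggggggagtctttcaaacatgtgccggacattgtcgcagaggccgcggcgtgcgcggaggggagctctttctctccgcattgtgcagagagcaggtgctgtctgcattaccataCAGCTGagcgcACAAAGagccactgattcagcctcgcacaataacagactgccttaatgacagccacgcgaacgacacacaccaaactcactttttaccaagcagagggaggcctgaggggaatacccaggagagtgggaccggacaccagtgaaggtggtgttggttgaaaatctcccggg
Dll4, chr2:119325534-119325833, plus strand: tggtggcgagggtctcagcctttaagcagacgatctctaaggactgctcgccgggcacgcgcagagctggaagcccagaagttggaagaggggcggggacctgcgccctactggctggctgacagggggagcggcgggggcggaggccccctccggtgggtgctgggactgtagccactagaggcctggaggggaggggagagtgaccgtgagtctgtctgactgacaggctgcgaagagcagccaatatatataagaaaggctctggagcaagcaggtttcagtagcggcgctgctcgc
The Wnt3 window held TGGGAA on the reverse strand from position -194 and CTTTGT from position 19, counted from the start. The Dll1 window held CAGCTG from position -132, a palindrome read on both strands, and CTTTGT on the reverse strand from position -121. The Dll4 window held none of these letters, and neither did the window of a second Dll1 start that lies within the gene. Of 32851 promoter windows of this length, 25.6% held TGGGAA, 18.7% CTTTGT, 16.3% CAGCTG, 17.2% CAGATG, 16.0% CTTTGA and 13.6% TATAAA, so each match was a common one.

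The WT matrix held 134876816 UMIs (molecular tags that count captured transcripts rather than copied reads) over 15987 barcodes and the KO matrix 123794575 over 12763. After filters, 13095 WT and 8658 KO cells were kept, and 8990 and 4841 of them were placed in 1 of 8 gates by marker genes. The gates are crypt base columnar stem cells (CBC), transit-amplifying cells (TAC), Paneth cells (PC), goblet cells (GC), enteroendocrine cells (EEC), tuft cells (TC), immature enterocytes (imEC) and mature enterocytes (mEC). Markers of the named class, and of no other class, were among the 10 leading genes of every gate. Since cells were gated by these markers, this is no separate check of the names. The PC gate held 3417 WT and 1216 KO cells, with a median of 22032 and 41667 UMIs per cell. The CBC gate held 584 and 482 cells (median 7695 and 11348.5 UMIs) and the TAC gate 1267 and 684 (median 8794 and 18208 UMIs), so KO cells were deeper throughout these gates. Of markers of other cell types, the 6 of stroma had 0 to 4 UMIs each in a matrix, those of red cells 0 to 3 and the T cell genes Cd3d, Cd3e and Cd3g 1 to 9. The most UMIs were those of Lyz2 (242 in WT and 170 in KO), Cd68 (129 and 71), Jchain (53 and 113), Ptprc (62 and 12) and the endothelial Pecam1 (34 and 11). Only 57 barcodes occurred in both matrices. Fabp6, an ileal gene, stood at 564 CPM in WT and 2795 CPM in KO (UMIs of a gene per 1000000 UMIs of the cells summed) and Slc10a2, another, at 2.21 and 18.4. The other distal markers stood closer, Osr2 at 19.3 and 21.4, Nr1h4 at 13.9 and 17.1 and Guca2a at 1118 and 941. Of proximal markers, Fabp1 (1002 and 1312) and Ms4a10 (36.8 and 80.3) were higher in KO, and Gata4 (17.2 and 13.2), Slc40a1 (7.32 and 4.87) and Cybrd1 (3.62 and 1.53) lower, so the lists did not move one way. The part of these differences in the values below was not tested. Ctnnb1 itself stood at 119 CPM (117 to 121) in WT and 91.8 (90.03 to 93.5) in KO, at 221 and 143 in CBC-gated cells and at 52.2 and 36.3 in PC-gated cells.

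Levels below are CPM over the summed UMIs of a gate. RNA set free from broken cells can add UMIs to droplets, and its amount was not measured here. Paneth products made up 292621 CPM of the WT matrix, and 32570 CPM even in TAC-gated cells. The parts of free RNA, of doublets and of the cells' own transcripts in the latter value were not tested. For each gate a free-RNA level was therefore set, the level a gene would have if every Paneth product UMI of the gate were free RNA of the matrix's composition. In PC-gated cells enterocyte products took that role.

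Wnt3, the Wnt ligand of Paneth cells, was found mainly where it was looked for. PC-gated cells held 2521 of 3162 WT UMIs (79.7%) and 1400 of 1851 KO UMIs (75.6%). Over all genes that gate held 71653923 of 131258709 WT UMIs and 45341039 of 117290696 KO UMIs. The level in PC-gated cells was 35.2 CPM (33.8 to 36.6) in WT and 30.9 (29.3 to 32.5) in KO, against free-RNA levels of 3.91 and 2.86. EEC-gated cells came next, at 27.7 (19.4 to 38.4) in WT and 16.9 (11.7 to 23.7) in KO, above free-RNA levels of 11.0 and 3.41. These EEC values rest on 36 and 34 UMIs, and in WT their interval overlapped that of PC-gated cells.
CBC-gated cells, the receivers, held Wnt3 at 10.3 (7.71 to 13.5) in WT and 9.30 (7.10 to 12.0) in KO, against free-RNA levels of 6.17 and 3.72. GC-gated cells held 8.32 (6.50 to 10.5) and 6.56 (5.23 to 8.12), against 5.20 and 2.66. In TAC-gated cells the level was 6.79 in WT and 2.82 in KO, each above the free-RNA level. Wnt3 in mature enterocytes (4.04 and 1.27) and immature enterocytes (3.201 and 0.956) did not exceed free RNA in either matrix, and neither did tuft cells (8.57 and 3.69, from 9 and 5 UMIs).

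**Figure D1:**
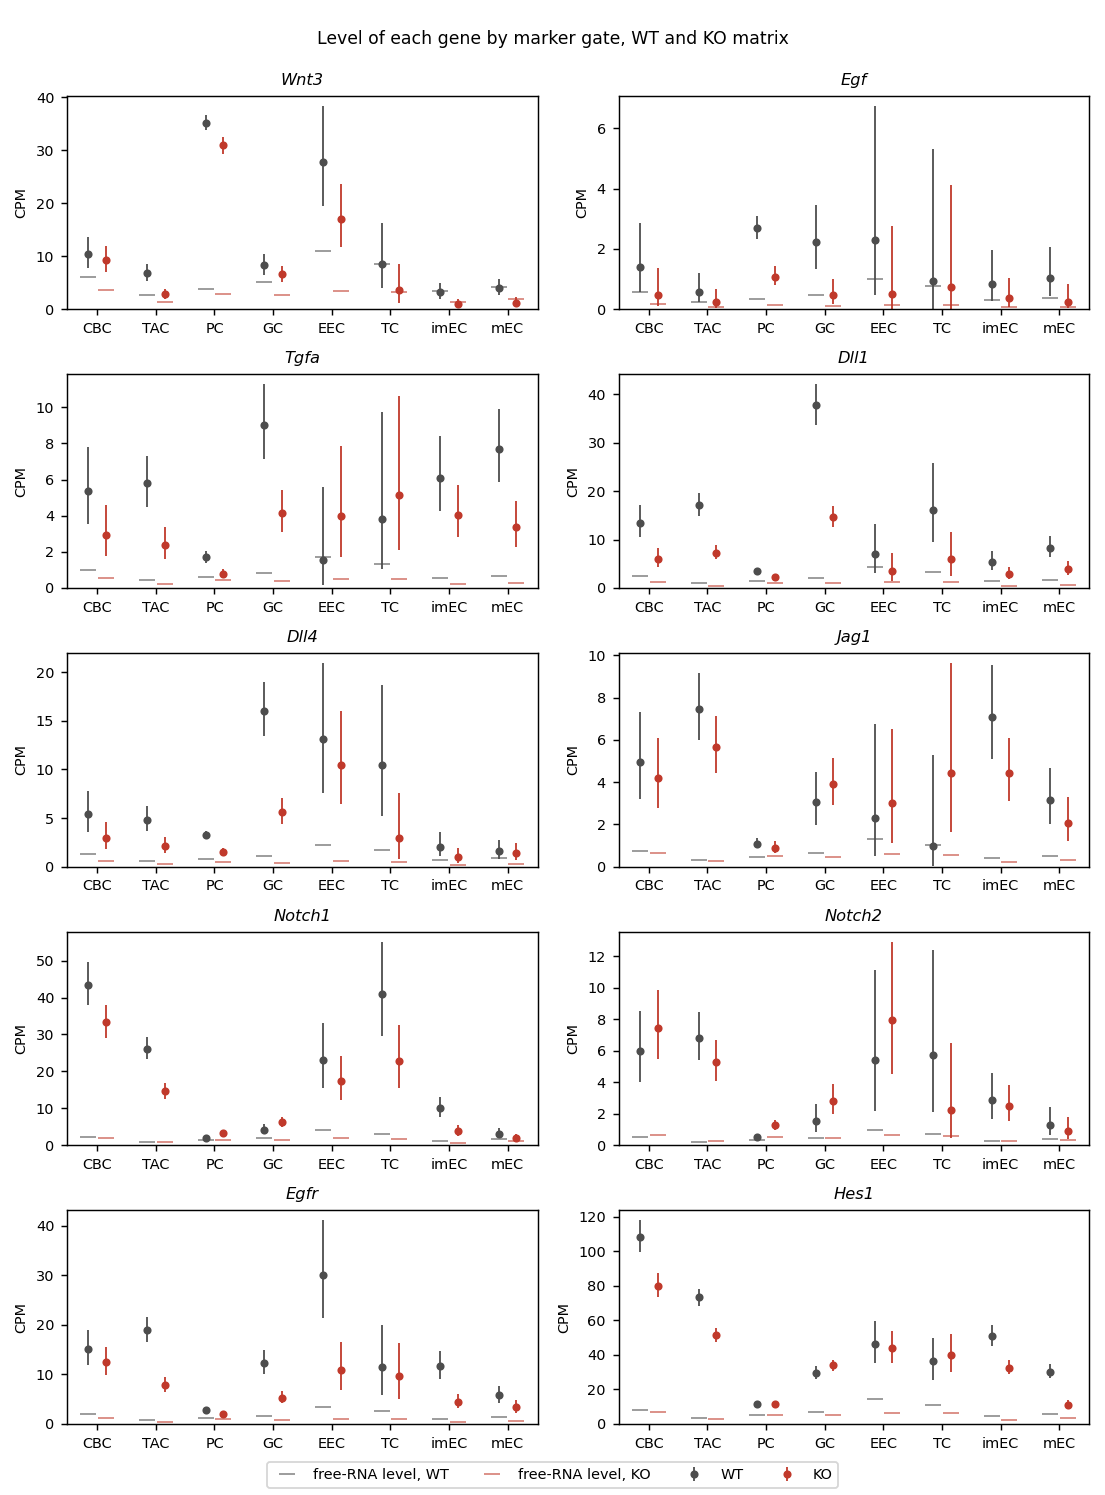
Level of each of the 10 genes (CPM, linear axes from 0) in 8 marker gates, WT grey and KO red, with exact Poisson 95% intervals of the counts and short bars for the free-RNA level. Wnt3 stands highest in PC-gated cells in both matrices (35.2 and 30.9), Dll1 in GC-gated cells (37.7 and 14.6), and Notch1 and Hes1 in CBC-gated cells.

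Egf, the namesake ligand of the EGF receptor, was scarce, with 287 UMIs in the whole WT matrix and 83 in KO. PC-gated cells held 193 and 49 of them, where the matrix-wide level was 2.19 CPM in WT and 0.708 in KO. The level in PC-gated cells was 2.69 (2.33 to 3.10) in WT and 1.08 (0.800 to 1.43) in KO, above free-RNA levels of 0.355 and 0.128. An Egf UMI was seen in 5.44% of WT and 3.70% of KO PC-gated cells. In the shallower mEC-gated cells (median depths 5485.5 and 8855 UMIs) the shares were 0.596% and 0.205%. The part of depth in this contrast was not tested. By level, WT mEC-gated cells stood at 1.04 from 8 UMIs, above the free-RNA level of 0.383. KO mEC-gated cells stood at 0.231 from 2 UMIs, not above free RNA beyond counting error. GC-gated cells stood at 2.23 (1.34 to 3.48) in WT, an interval that overlapped that of PC-gated cells, and at 0.468 in KO from 6 UMIs. Between the other gates (at most 8 UMIs each) no order could be read.

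Tgfa, another ligand of the same receptor, was low in Paneth cells. It was highest in GC-gated cells in WT at 9.02 (7.12 to 11.3), with mEC-gated cells at 7.69, imEC at 6.07, TAC at 5.79 and CBC at 5.36, all with overlapping neighbours, and with clusters goblet cells did not lead. PC-gated cells held 1.69 (1.40 to 2.02), below each of these and above the free-RNA level of 0.611. In KO the GC, imEC and mEC gates stood at 4.14, 4.06 and 3.35 and the PC gate at 0.772 (0.538 to 1.07), with a free-RNA level of 0.410. The higher KO values of the TC and EEC gates (5.16 and 3.98) rest on 7 and 8 UMIs.

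Dll1, a Delta ligand of Notch receptors, was highest in GC-gated cells, which held 322 of 1226 WT UMIs. The level there was 37.7 (33.7 to 42.1) in WT and 14.6 (12.6 to 16.8) in KO, with free-RNA levels of 2.02 and 0.938. TAC-gated cells followed at 17.2 (14.9 to 19.7) and 7.30 (5.89 to 8.94), and CBC-gated cells at 13.5 (10.5 to 17.1) and 6.04 (4.30 to 8.26). The goblet value lay apart from its neighbour in both matrices, whereas TAC and CBC intervals overlapped in WT and in KO. TC-gated cells stood at 16.2 and 5.90, from 17 and 8 UMIs. PC-gated cells held 3.42 (3.004 to 3.88) in WT and 2.18 (1.77 to 2.66) in KO, the lowest of the 8 gates, though above the free-RNA levels of 1.52 and 1.01.

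Dll4, the other Delta ligand, differed from Dll1 in its order, with EEC-gated cells near the top. GC-gated cells stood at 16.0 (13.5 to 19.0) in WT, EEC-gated at 13.1 (7.63 to 20.96) and TC-gated at 10.5 (5.23 to 18.7), with overlapping intervals, and with clusters in place of gates EEC and GC changed places in WT (-0.04 on the log2 scale). TAC-gated cells held 4.78 (3.62 to 6.19). PC-gated cells held 232 of the 638 WT UMIs, more than the 137 of GC-gated cells. Over all genes these gates held 71653923 and 8537427 WT UMIs. The level in PC-gated cells was 3.24 (2.83 to 3.68), below the matrix-wide 4.86 and above the 1.56 (0.809 to 2.73) of mEC-gated cells. In KO, EEC-gated cells led at 10.5 (6.47 to 16.0, 21 UMIs), before GC-gated cells at 5.62 (4.40 to 7.08), and PC-gated cells stood at 1.54 (1.20 to 1.95).
Jag1, a ligand of the Serrate type, was low and spread over progenitors and immature enterocytes. Its level was 7.46 (5.99 to 9.18) in TAC-gated and 7.08 (5.10 to 9.57) in imEC-gated WT cells, and 5.65 and 4.42 in KO. PC-gated cells were at 1.09 and 0.882.

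Per cell, the Delta ligands were seen more often in goblet cells than in any other gate. At least 1 UMI of Dll1 or Dll4 was found in 26.0% of WT and 27.9% of KO GC-gated cells, although PC-gated cells were several times deeper and showed 12.6% in each matrix. The shallower CBC, TAC, EEC and TC gates showed 12.7%, 13.5%, 11.1% and 14.7% in WT and 10.2%, 13.6%, 20.6% and 8.25% in KO. The imEC and mEC gates showed 5.79% and 5.14% in WT and 5.64% and 4.51% in KO. Of the 3417 WT PC-gated cells, 1411 showed none of the 6 ligands, 1598 showed 1, and 221 showed Wnt3 together with Dll1 or Dll4. Of the 1216 KO PC-gated cells these numbers were 419, 621 and 105. Such co-detection rises with depth and was not compared between the matrices.

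Notch1, the main receptor of the list, was highest in CBC-gated cells at 43.5 (37.9 to 49.6) in WT and 33.3 (29.0 to 38.1) in KO. TC-gated cells came next at 40.9 (29.6 to 55.1) and 22.9 (15.5 to 32.5), not apart from CBC-gated cells beyond counting error in either matrix, and with clusters of each matrix in place of gates CBC stood below TC in WT, by -0.49 on the log2 scale. TAC-gated cells held 26.2 (23.3 to 29.2) and 14.6 (12.6 to 16.8). In WT, PC-gated cells had the lowest level of the 8 gates, 1.95 (1.64 to 2.31), near the free-RNA level of 1.43. KO PC-gated cells stood at 3.44 (2.92 to 4.02) against a free-RNA level of 1.52.
Notch2, the second receptor, totalled 276 WT and 336 KO UMIs. TAC-gated and CBC-gated cells held 6.79 and 5.96 in WT and 5.26 and 7.44 in KO, with overlapping intervals. PC-gated cells held 0.502 (0.352 to 0.696) in WT and 1.26 (0.952 to 1.63) in KO, with free-RNA levels of 0.341 and 0.518.

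Egfr, the receptor of Egf and Tgfa, led in EEC-gated WT cells at 30.03 (21.4 to 41.1, 39 UMIs). TAC-gated cells held 18.9 (16.5 to 21.5), CBC-gated 15.1 (11.9 to 18.9), and GC-gated 12.3 (10.1 to 14.9). In KO the first places, CBC at 12.4 (9.83 to 15.4), EEC at 11.0 and TC at 9.59, could not be ordered. PC-gated cells held 2.72 and 1.94, the lowest in both matrices.
Hes1, a transcriptional repressor switched on by Notch, was highest in the same gate as Notch1. CBC-gated cells stood at 108 (99.5 to 118) in WT and 80.0 (73.2 to 87.2) in KO, and TAC-gated cells at 73.2 (68.4 to 78.2) and 51.5 (47.7 to 55.6), and the intervals of these gates did not overlap in either matrix. When the gates were replaced by clusters of each matrix, TAC led over CBC for Hes1 in WT. PC-gated cells held 11.7 (10.9 to 12.5) and 11.3 (10.4 to 12.4), above free-RNA levels of 5.05 and 5.35 and below all other gates in WT.

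Among TAC-gated cells the Delta ligands went with Atoh1. In WT, Dll1 stood at 64.0 (47.8 to 83.9) in the 73 cells with at least 2 Atoh1 UMIs and at 10.0 (8.14 to 12.2) in the 1064 cells with none, a log2 difference of 2.67 (2.16 to 3.17). Dll4 stood at 17.2 and 2.69 in these cells, a log2 difference of 2.68 (1.63 to 3.67). In KO the log2 differences were 1.93 (1.09 to 2.71) for Dll1, from 19.3 against 5.07, and 2.43 (1.002 to 3.74) for Dll4, from 8.12 against 1.502, with 39 and 596 cells. For Jag1 no difference could be read (6.15 against 8.07 in WT, 2.03 against 6.01 in KO), with 5 and 2 UMIs in the cells with Atoh1. Its log2 intervals were -2.05 to 0.89 in WT and -4.64 to 0.35 in KO.
Hes1 was lower in the WT cells with Atoh1, at 41.8 (29.0 to 58.5) against 77.9 (72.5 to 83.7). In KO it was 51.8 (38.6 to 68.1) against 50.9 (46.7 to 55.4), and the difference between the matrices was not tested. Notch1 was 9.85 against 28.1 in WT and 11.2 against 14.8 in KO. Muc2, a goblet mucin, moved with Atoh1 (log2 2.75 in WT and 2.21 in KO), and the part of goblet transcripts or of doublets in the Dll1 difference was not tested. Cells with Atoh1 were also deeper (median 10482 against 8635.5 UMIs in WT, 24111 against 17594.5 in KO). In CBC-gated cells at most 3 UMIs of each Delta ligand fell in cells with 2 Atoh1 UMIs, too few to compare.

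**Figure D2:**
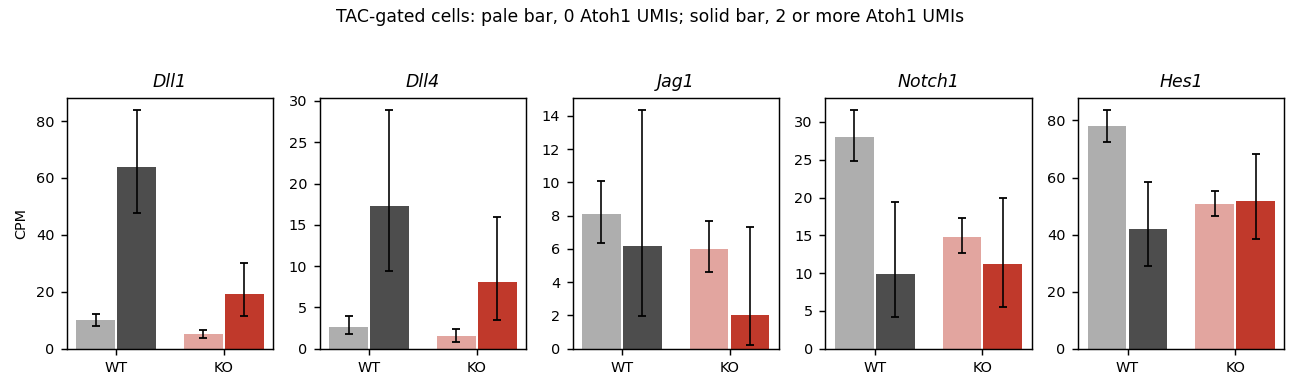
Level (CPM, axes from 0) of 5 genes in TAC-gated cells without Atoh1 UMIs (pale bars) and with 2 or more (solid bars), WT grey and KO red, with exact Poisson 95% intervals. Dll1 and Dll4 stand higher with Atoh1 in both matrices, and Hes1 stands lower with Atoh1 in WT, while its KO intervals overlap.

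KO was then set against WT within each gate, as the log2 ratio of levels. A gene was called past 2-fold at a log2 ratio of 1 or more in size, if it had at least 50 UMIs over both matrices. In PC-gated cells 3 of the 10 genes were past 2-fold lower in KO, where 6.67% of all 10866 genes were, and 1 was past 2-fold higher, where 3.55% were. Wnt3 itself was slightly lower, with a log2 ratio of -0.19 (-0.28 to -0.09), while the median of all genes in the gate was -0.07. The 3 lower genes were Egf at -1.32 (-1.80 to -0.86), Tgfa at -1.13 (-1.72 to -0.58) and Dll4 at -1.07 (-1.48 to -0.68). With at least 500 genes per cell required, 1 gene was past 2-fold lower in that gate. Goblet markers summed to 5212 CPM in WT and 3572 in KO PC-gated cells, and their part in the ratios of Dll1, Dll4 and Tgfa was not tested. Dll1 stood at -0.65 (-0.999 to -0.30), Egfr at -0.49 (-0.87 to -0.12), Jag1 at -0.30 (-0.89 to 0.26) and Hes1 at -0.04 (-0.20 to 0.12).
The gene past 2-fold higher was Notch2 at 1.32 (0.70 to 1.97), and Notch1 stood at 0.82 (0.48 to 1.16). Most TAC markers moved along in that gate: the 12 summed to 232 CPM in WT and 410 in KO PC-gated cells, and 10 of the 12 had intervals above 0. Stmn1 alone stood at 52.5 in WT and 151 in KO. Mki67 went the other way at -0.78 (-0.92 to -0.64), and the interval of Top2a held 0. The 9 CBC markers summed to 127 and 131, 4 of them with intervals above 0 and 3 below. The part of progenitor transcripts in the Notch1 and Notch2 ratios was not tested.

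Because KO cells were deeper, a lower share of UMIs did not always mean fewer UMIs in a cell. Wnt3 averaged 0.738 UMIs per WT and 1.15 per KO PC-gated cell, with a UMI in 48.1% and 58.6% of cells. Thinned to 20000 UMIs per cell, 50.5% (48.3 to 52.7) of the 1966 WT cells and 44.7% (41.4 to 48.0) of the 889 KO cells of that depth showed Wnt3, and thinned to 10000 UMIs, 29.3% of 2730 and 27.2% (24.3 to 30.1) of 935. Thinned to 1000 UMIs, where no cell is lost, the shares were 4.01% and 4.28%. The mEC-gated cells, which should lack Wnt3, showed it in 2.16% of WT and 1.13% of KO cells before thinning. Thinned to 1000 UMIs, they showed it in 0.373% and 0.103%.
In quartiles of PC-gated cells by depth, Wnt3 was highest in the shallowest quartile, at 49.1 (43.0 to 55.9) in WT and 71.8 (57.3 to 88.9) in KO, whose median depths were 3999 and 2623 UMIs. In the deeper 3 quartiles it lay between 32.6 and 36.2 in WT and between 29.1 and 30.9 in KO. Dll4 was highest in the shallowest quartile of both matrices, with 6.90, 4.13, 3.17 and 2.27 in WT from the shallowest to the deepest quartile and 11.1, 1.64, 0.959 and 1.36 in KO. With the mean over cells of each cell's own CPM in place of the summed level, its log2 ratio of KO to WT in PC-gated cells was -0.08, no longer past 2-fold, and the part of depth in its ratio was not tested.
Notch1 was higher in KO than in WT in each of the 4 quartiles, with 1.29, 1.29, 2.08 and 2.302 in WT and 7.69, 4.42, 3.22 and 2.87 in KO, the shallowest from 6 and 9 UMIs. In the deepest quartile the intervals overlapped (1.79 to 2.91 and 2.18 to 3.72), as they did in the one before it (1.51 to 2.80 and 2.37 to 4.28). Depths were not matched, with deepest medians of 31589.5 UMIs in WT and 62128 in KO.

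**Figure D3:**
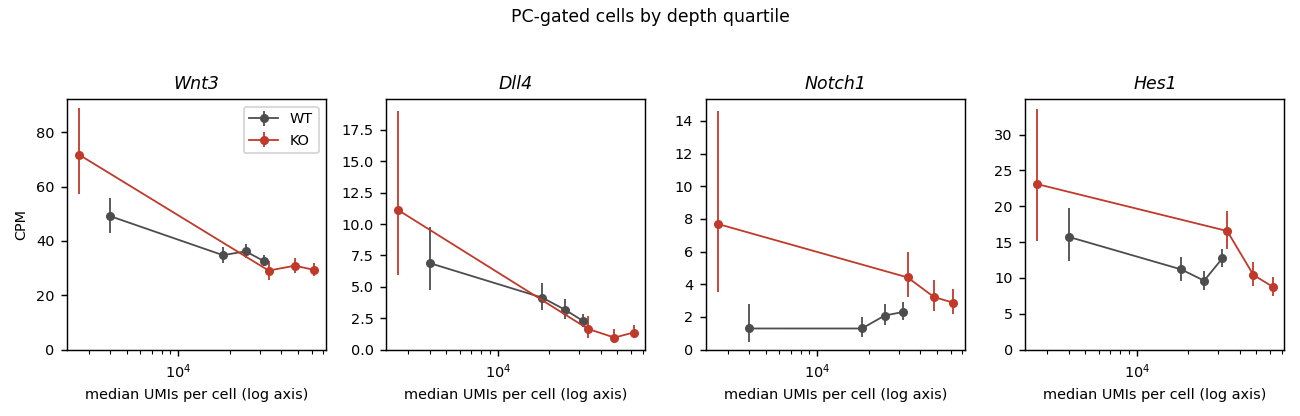
Level of Wnt3, Dll4, Notch1 and Hes1 (CPM, axes from 0) in PC-gated cells against the median UMIs per cell of each depth quartile (log axis), WT grey and KO red, with exact Poisson 95% intervals. Wnt3 lies between 29.1 and 36.2 in the deeper 3 quartiles of both matrices, and Notch1 is higher in KO in every quartile, with overlapping intervals in the deepest and the one before it.

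In CBC-gated cells, the receivers, 1 of 7 genes with enough UMIs was past 2-fold lower, where 13.4% of all genes were, and none was higher, where 0.54% were. That gene was Dll1 at -1.16 (-1.77 to -0.57), which no longer passed with clusters (-0.46) or with markers scaled over both matrices (-0.94). Goblet markers in that gate summed to 4599 CPM in WT and 2217 in KO, and their part in the Dll1 ratio was not tested. Notch1 stood at -0.38 (-0.66 to -0.11) and Hes1 at -0.44 (-0.62 to -0.26), beside a median of -0.28 over all genes. Both turned direction, to 0.35 and 0.36, when clusters of each matrix replaced the gates. A WT cluster of 668 cells with Mcm3, Mcm6 and Hells among its leading genes was named CBC. A KO cluster of 468 cells with these genes in the lead was named TAC. The part of this in the cluster ratios of CBC and TAC was not tested. Wnt3 (-0.15), Jag1 (-0.25), Notch2 (0.32) and Egfr (-0.28) had intervals that held 0, and clusters gave -1.02 for Wnt3.
In TAC-gated cells 5 of 9 were past 2-fold lower, where 17.6% of all genes were, and none higher, where 0.43% were. They were Tgfa at -1.30 (-1.97 to -0.66), Wnt3 at -1.27 (-1.87 to -0.68), Egfr at -1.27 (-1.62 to -0.92), Dll1 at -1.24 (-1.61 to -0.88) and Dll4 at -1.17 (-1.89 to -0.49). Products of other cell types were lower in the same gate: the 8 goblet markers summed to 7333 CPM in WT and 3511 in KO, and the 10 Paneth markers to 32570 and 17403. Their part in the ratios of Dll1, Dll4 and Wnt3 was not tested.
With clusters in place of gates 1 gene, and with markers scaled over both matrices 2 genes, were past 2-fold lower there, and Dll4 turned to 0.17. Notch1 stood at -0.84 (-1.11 to -0.58) and Hes1 at -0.51 (-0.65 to -0.36), with a median of -0.37 over all genes.

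In GC-gated cells, where Dll1 was highest, 4 of 8 were past 2-fold lower, where 13.6% of all genes were. Dll4 stood at -1.51 (-1.95 to -1.09), Dll1 at -1.37 (-1.64 to -1.11), Egfr at -1.21 (-1.67 to -0.76) and Tgfa at -1.12 (-1.66 to -0.60). The gate's own 8 markers summed to 144621 CPM in WT and 84303 in KO, mature enterocyte markers to 1804 and 3466, and Fabp6 stood at 314 and 2145, and the part of these in the ratios was not tested.
Clusters gave -1.004 for Dll4, -0.73 for Dll1 and -1.13 for Wnt3 (-0.34 with gates) in goblet cells, and the mean over cells of CPM per cell left 2 genes past 2-fold lower. Per cell, Dll1 averaged 0.239 UMIs in WT and 0.252 in KO GC-gated cells, whose median depths were 5657 and 17005 UMIs. Thinned to 1000 UMIs, 3.42% (2.51 to 4.53) of WT and 2.02% (1.14 to 3.31) of KO GC-gated cells showed Dll1. Hes1 stood at 0.19 (-0.04 to 0.42) and Notch1 at 0.55 (-0.04 to 1.16) there.
In the enterocyte gates, Hes1 was lower in mEC-gated cells at -1.45 (-1.81 to -1.10) and in imEC-gated cells at -0.64 (-0.88 to -0.40). Of the genes with enough UMIs, 3 of 4 were past 2-fold lower in mEC-gated cells, where 19.9% of all genes were, and 2 of 6 in imEC-gated cells, where 20.6% were (0 with clusters). The contents of these gates differed between the matrices: in mEC-gated cells the 12 mature enterocyte markers summed to 43664 CPM in WT and 81127 in KO and Fabp6 stood at 1857 and 12982, and in imEC-gated cells these markers summed to 2324 and 3480. Among the clusters, a KO cluster of 303 cells with Tmigd1, Fabp6 and Slc10a2 among its leading genes was named mEC, whereas the WT cluster of 342 cells led by Fabp6, with Tmigd1, was named imEC. Their part in the Hes1 ratios was not tested.
In EEC-gated cells 1 of 4 was past 2-fold lower, Egfr at -1.45 (-2.28 to -0.67), where 10.8% of all genes were, and in TC-gated cells 0 of 2, where 10.6% were. The EEC and TC gates held 131 and 97 KO cells, and few genes of the list could be compared there.

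**Figure D4:**
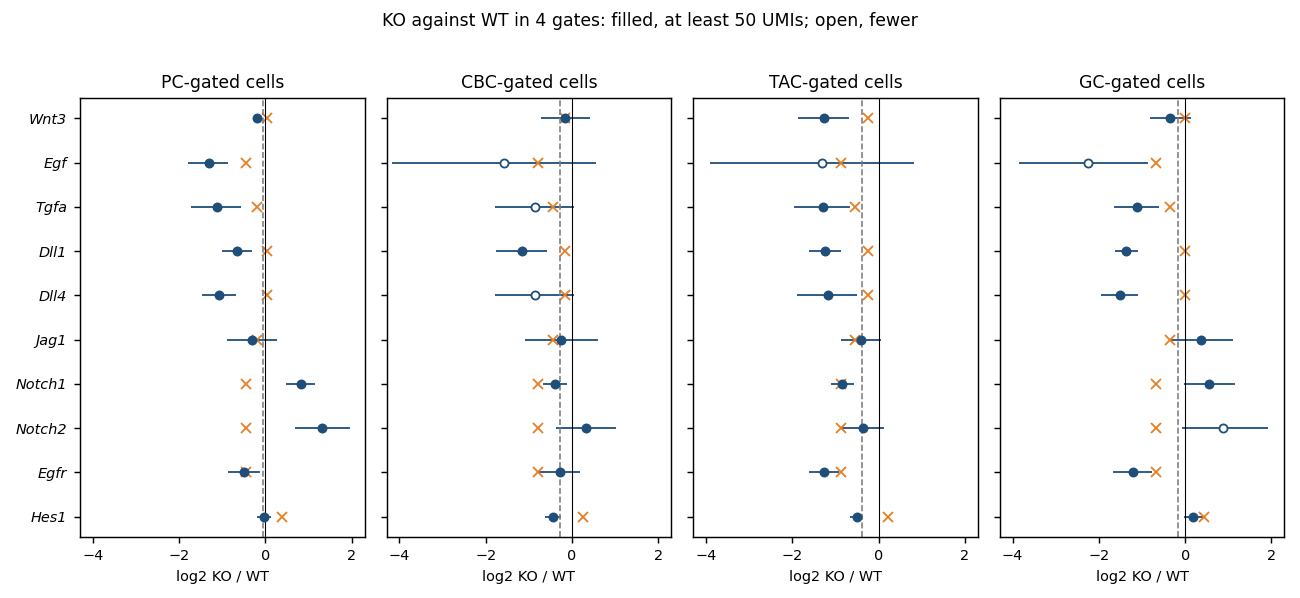
Log2 ratio of KO to WT level for each gene in PC-, CBC-, TAC- and GC-gated cells, with exact conditional 95% intervals, filled where at least 50 UMIs were counted. The dashed line is the median of all genes of the gate and the orange cross the median of genes of the same quartile of transcript length. Notch1 and Notch2 lie right of 0 in PC-gated cells, and Dll1 and Dll4 lie left of both marks in TAC- and GC-gated cells.

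The ratios of all genes went with transcript length, which bears on long genes of the list. In PC-gated cells the shortest quartile of genes had a median log2 ratio of 0.39 and the longest of -0.45, and in TAC-gated cells 0.21 and -0.87. Egf, Notch1, Notch2 and Egfr fell in the longest quartile (exon lengths of 10782 to 14232 bases), so that Egfr in PC-gated cells (-0.49) stood near its length group, whereas Notch1 and Notch2 stood above it. Wnt3, Dll1 and Dll4 belonged to the second quartile in these gates, whose median was 0.05 in PC-gated and -0.26 in TAC-gated cells, and Hes1 to the shortest. The part of length in each ratio was not tested.

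Other genes of the 3 pathways were read from lists of 34 Notch, 35 EGF and 31 Wnt secretion and receptor genes. Their ratios were set beside all genes only, not beside genes of like length. In CBC-gated cells the shortest quartile of genes had a median of 0.25 and the longest of -0.78. The part of length in the list ratios was not tested. In PC-gated cells 3 of 24 Notch genes with enough UMIs were past 2-fold lower, where 6.67% of all genes were, and none higher, with a median of -0.38 (-0.07 over all genes). They were Maml3, a coactivator of Notch transcription, at -1.23 (-1.63 to -0.85), Itch, a ubiquitin ligase, at -1.15 (-1.33 to -0.97) and Mib1, the ubiquitin ligase that sending cells need to activate Delta ligands, at -1.02 (-1.21 to -0.83). In CBC-gated cells 3 of 18 were past 2-fold lower, near the 13.4% of all genes, with a median of -0.59 (-0.28 over all genes), among them Rbpj, the DNA-binding partner of Notch, at -1.495 (-1.91 to -1.09), with Maml3 at -1.48 and Mib1 at -1.39. In TAC-gated cells 8 of 21 were, where 17.6% of all genes were, with a median of -0.72 (-0.37 over all genes), led by Maml3 (-1.51), Neurl1b (-1.42), another ligase of Delta ligands, and Rbpj (-1.34).

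Of the EGF list 1 of 28 was past 2-fold lower in PC-gated cells, the ligand Areg at -1.44 (-2.39 to -0.58), fewer than the 6.67% of all genes, and the median was -0.22. In CBC-gated cells 6 of 26 were past 2-fold lower, where 13.4% of all genes were, led by Errfi1, a feedback inhibitor of the receptor, at -1.86 (-2.46 to -1.28), the kinase Braf at -1.84 and Sos2, an exchange factor of Ras, at -1.39. The ligand Nrg4 was past 2-fold higher at 1.08 (0.31 to 1.89). In TAC-gated cells 10 of 27 were past 2-fold lower, where 17.6% of all genes were, led by Braf (-1.49), the receptor Erbb3 (-1.32) and the inhibitor Spred2 (-1.17).
Ligands and receptors of this list with at least 10 CPM in a gate of both matrices led in enterocytes. Areg stood at 29.3 in WT and 12.0 in KO mEC-gated cells, Hbegf at 37.4 and 34.0 and Erbb3 at 117 and 41.4, and Erbb2 stood at 49.0 and 22.6 in imEC-gated cells, close to its 46.9 and 19.8 in mEC-gated cells. In PC-gated cells Areg stood at 0.837 and 0.309 and Hbegf at 2.07 and 2.36.

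Of the Wnt list 4 of 16 were past 2-fold lower in PC-gated cells, where 6.67% of all genes were, with a median of -0.50, led by the Frizzled receptors Fzd6 at -1.94 (-2.87 to -1.12) and Fzd4 at -1.61, and by Dkk3 at -1.38. Sfrp5, a secreted Wnt antagonist, was past 2-fold higher at 1.47 (0.95 to 2.01), from 49 and 86 UMIs. In CBC-gated cells 2 of 10 were past 2-fold lower, where 13.4% of all genes were, Fzd5 at -1.29 (-1.64 to -0.94) and the co-receptor Lrp5 at -1.02, and in TAC-gated cells 3 of 12, where 17.6% were, Fzd6 (-1.59), Fzd5 (-1.36) and Lrp5 (-1.30). None of the other 8 Wnt ligands of the list, Wnt2b to Wnt11, reached 1 CPM in PC-gated cells of either matrix.
Receptors of the list led in other gates than the ligand. Fzd5 stood at 109 in WT and 40.0 in KO imEC-gated cells and Lrp6 at 52.1 and 30.2 there, Ryk at 60.8 and 39.1 in TAC-gated cells, and these leads were narrow for Lrp6 (51.4 in WT TC-gated cells) and for Ryk (56.4 in WT imEC-gated cells). Lgr4 had no clear leading gate, with 70.9, 69.7 and 69.2 in imEC-, CBC- and TAC-gated WT cells and 40.9, 46.2 and 41.2 in KO. In CBC-gated cells Fzd5 held 39.7 and 16.3 and Lrp6 45.7 and 25.1. Wls, the carrier that Wnt ligands need for secretion and a gene named here after its values were seen, led in CBC-gated cells at 51.0 and 28.5 and stood at 11.3 and 7.87 in PC-gated cells.

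Genes with the most alike pattern were sought over the 16 profiles of 8 gates in 2 matrices, by Pearson's r of log2 of the level plus 10, among 9729 genes. These profiles share depth, free RNA and matrix, so r is a description. Wnt3 was most like Tesc (0.95), Ggh (0.94) and Tmed6 (0.93). Dll1 was most like Mllt3 (0.92), Fgfr2 (0.91) and Slc10a7 (0.91), and Dll4 most like Rcan3 (0.93), Enpp4 (0.92) and Tbc1d8 (0.92). Jag1 was most like Acad9 (0.91), Pigw (0.91) and Klhl15 (0.88), and Tgfa most like Arid3b (0.91), Ripk4 (0.88) and Clstn1 (0.87).
Among receptors, Notch1 was most like Slco3a1 (0.98), Snx10 (0.97) and Paics (0.96), Notch2 most like Ift74, Ccdc191 and Spata7 (0.95, 0.95 and 0.94), and Egfr most like Pogz, Nek1 and Taf1 (each 0.96). Hes1 was most like Engase, Ikbkap and Cps1 (each 0.96). Egf had too few UMIs for this comparison.

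Positions are those of GENCODE M21 for GRCm38, on which all 10 genes were protein-coding: Wnt3 at chr11:103774150-103817957, Dll1 at chr17:15367354-15376872, Dll4 at chr2:119325784-119335962 and Notch1 at chr2:26457903-26516663. Dll1 overlaps the antisense transcript A930024N18Rik, Egfr overlaps Egfros, and Egf overlaps 3 antisense transcripts counted in the matrices. Per the study's methods Cell Ranger was run at its defaults, under which only reads in the sense direction of a gene are counted.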

How the data were processed

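EpCAM+ crypt cells had been captured in droplets (10x Genomics, 3-prime v2 kit, chip chemistry v2 or v3 per the study's methods, which library had which is not given). The authors deposited raw counts of UMIs per gene and barcode, 1 matrix per group, without normalization. The file headers name Cell Ranger 4.0.0, whereas the submitters' processing notes list Cell Ranger 2.1.1 and mm10. The study's methods state default settings, under which Cell Ranger of these versions counts exonic reads in the sense direction. Mice per genotype differ between the study's legends, and its scRNA-seq animals were female and pooled.

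Cells needed at least 200 genes and at most 30% mitochondrial UMIs. No doublet caller was run, and doublets stayed in. Each cell's markers were scaled within its matrix (log of UMIs per 10000) and averaged by class. A cell entered the gate of its highest score if that was at least 0.5, led the next by at least 0.25, and the cell had at least 1500 UMIs. The depth floor was added after seeing the data, since shallow barcodes otherwise filled the KO PC gate. Of the kept cells, 2507 WT and 2777 KO cells were under that floor, 343 and 363 under the score limit and 1255 and 677 too close to another class, while 1370 and 848 lay within 0.1 of a limit. Gated cells made up 68.7% and 55.9% of those kept.

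Counts were summed per gate and given per 1000000 UMIs (CPM) with exact Poisson 95% intervals, shares of cells with exact Clopper-Pearson intervals, and log2 ratios with exact conditional binomial intervals. With 1 matrix per group no test, replicate error or leave-one-out was possible. The ratio script was tested on simulated data. Named genes were all 10 members, up to 3 genes each way of a pathway list past 2-fold with 50 UMIs, list ligands and receptors at 10 CPM or more in a gate of both matrices, and the 3 most alike genes of each member with 500 UMIs. Members, markers and lists were chosen with earlier results of these data known. Of the 27998 gene identifiers, 99.0% were found in GENCODE M21, which gave positions and summed exon lengths. Promoter sequences came from RefSeq (GRCm38.p6), with windows for 9 of the 10 members, Hes1 being the exception. Python 3.11.15, numpy 2.4.6, scipy 1.17.1 and leidenalg 0.10.2 were used. Alternatives changed the cell filters, margin, marker scaling, denominator, averaging, deepest cells, clusters (Leiden, per matrix), UMI minimum, Atoh1 minimum and depth floor.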

Additional observations from a re-analysis of the deposited data

Results flagged for a closer look

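Notch1 was the gene of the list whose KO/WT ratio had an interval above 0 in 1 gate and below 0 in others. In PC-gated cells its log2 ratio was 0.82, whereas it was -0.38 in CBC-gated, -0.84 in TAC-gated, -0.84 in TC-gated and -1.40 in imEC-gated cells. Genes of its transcript length quartile had medians of -0.45 in PC-gated, -0.78 in CBC-gated, -0.87 in TAC-gated, -0.63 in TC-gated and -0.95 in imEC-gated cells, so beside its length group Notch1 stood 1.26 higher in PC-gated, 0.39 higher in CBC-gated and 0.03 higher in TAC-gated cells, and at -0.21 and -0.45 in TC- and imEC-gated cells. The difference between gates was not tested, since each gate has 1 matrix per group. The level behind the PC value was 1.95 CPM in WT and 3.44 in KO, both low beside the 43.5 of WT CBC-gated cells, and the free-RNA levels were 1.43 and 1.52. TAC markers in PC-gated cells summed to 232 CPM in WT and 410 in KO, and their part in the ratio was not tested. The CBC value turned direction under clusters, and the CBC clusters of WT and KO had different leading genes. The PC value stayed above 0 in all 9 alternatives run, between 0.55 and 1.52.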

How the results depend on the processing

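Of 450 KO/WT ratios recomputed under alternatives, 427 stayed within the main counting interval, 20 moved beyond it and 3 reversed. Of 180 comparisons of a leading gate with the next, 171 stayed within it, 8 moved and 1 reversed, and all 16 Atoh1 comparisons stayed. The Atoh1 alternative kept the same cells without Atoh1 and held all the main cells with it, so it was no separate check. Clusters of each matrix in place of gates caused every reversal: Dll4 in TAC-gated cells went to 0.17, Notch1 and Hes1 in CBC-gated cells to 0.35 and 0.36, and the log2 lead of CBC over the next gate for WT Hes1 to -0.25. Clusters also moved Dll1 and Dll4 in GC-gated cells to -0.73 and -1.004, and the mean over cells of CPM per cell moved Dll1 there to -0.90. Wnt3 in PC-gated cells moved to -0.41 with genes above 1% left out of the denominator and to -0.066 with the mean over cells. Clusters with Mcm3, Mcm6 and Hells among their leading genes were named CBC in WT and TAC in KO. The part of this naming, or of any other cause, in these shifts was not tested. Genes past 2-fold lower in TAC-gated cells, 5 in the main analysis, were 1 with clusters and 2 with markers scaled over both matrices. In CBC-gated cells the count of 1 became 0 with that scaling, 2 with mitochondrial UMIs limited to 15% and 2 with no UMI minimum beyond 1. In PC-gated cells the 3 lower became 1 with at least 500 genes per cell, and the 1 higher became 2 with the mean over cells and 2 with the deepest 10% of cells left out. The depth floor of 1500 UMIs was chosen after seeing the data, and without it no KO/WT ratio in a leading gate moved beyond its interval. No paired analysis was possible because each group came as 1 matrix, and leaving out replicates was impossible for the same reason. Depth limits Egf, Notch2, and most genes in the EEC and TC gates, where intervals span several-fold.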
